A study of Mus musculus with 14 samples.

Results

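The NF-kB genes described here are 10 of the 12924 genes listed in both deposited tables. They were found by name in the symbol column, and all 10 were present in each table. The 5 subunit genes are Nfkb1, Nfkb2, Rela, Relb and Rel, and the 5 inhibitor genes are Nfkbia, Nfkbib, Nfkbie, Nfkbiz and Tnfaip3. RNA was sequenced from flank tumors of Lewis lung carcinoma (LLC), a mouse lung cancer line, collected on day 14 after implantation. The host mice were p110g-/-, lacking PI3K gamma, the lipid kinase whose catalytic subunit is encoded by Pik3cg, or wild type (WT), and the labels give C57BL/6 for both. The genotype is that of the host, and the implanted cancer cells were LLC cells in both. From p110g-/- mice there were 4 libraries of CD11b+Gr1- cells, sorted by flow cytometry and named tumor-associated macrophages (TAM) in the labels, and 3 libraries of whole tumor. From WT mice there were also 4 TAM and 3 whole tumor libraries. A TAM library came from 1000000 sorted cells and a whole tumor library from 30 mg of tissue.

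NF-kB is a family of dimeric transcription factors that turn on cytokine, chemokine and survival genes after signals such as lipopolysaccharide, TNF or IL-1. Rela, Relb and Rel carry activation domains, while Nfkb1 and Nfkb2 encode precursors that are processed to their DNA-binding partners. IkB proteins hold the dimers in the cytoplasm until the IKK kinase complex marks them for degradation, and several inhibitor genes are themselves NF-kB targets, which closes a negative feedback loop. In macrophages this pathway is best known for inflammatory gene expression.

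The stretch just before the gene start is shown for 3 inhibitors whose values the TAM comparison turns on, and for Rela, the subunit used below as a yardstick. Each is the 250 bases upstream of the first annotated start, from RefSeq on build GRCm38.p6, written 5′ to 3′ along the gene. Capitals mark matches to the kappa B consensus, the 10-letter site that NF-kB dimers bind, read on both strands with overlapping matches joined.
Tnfaip3, chr10:19015411-19015660, minus strand: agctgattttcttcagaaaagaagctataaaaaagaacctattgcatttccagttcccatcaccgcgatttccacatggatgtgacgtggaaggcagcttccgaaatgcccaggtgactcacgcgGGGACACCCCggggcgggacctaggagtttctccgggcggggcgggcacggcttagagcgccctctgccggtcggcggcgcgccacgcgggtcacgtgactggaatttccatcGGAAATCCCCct
Nfkbia, chr12:55492648-55492897, minus strand: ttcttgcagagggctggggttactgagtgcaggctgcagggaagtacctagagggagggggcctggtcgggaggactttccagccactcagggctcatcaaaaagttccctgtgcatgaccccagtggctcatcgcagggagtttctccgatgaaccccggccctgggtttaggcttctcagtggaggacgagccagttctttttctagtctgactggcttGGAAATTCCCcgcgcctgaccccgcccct
Nfkbie, chr17:45555450-45555699, plus strand: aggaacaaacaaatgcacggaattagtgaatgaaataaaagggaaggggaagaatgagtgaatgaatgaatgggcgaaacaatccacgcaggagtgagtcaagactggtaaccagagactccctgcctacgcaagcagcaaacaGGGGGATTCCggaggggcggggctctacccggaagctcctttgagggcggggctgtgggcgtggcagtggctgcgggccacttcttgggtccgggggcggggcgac
Rela, chr19:5637291-5637540, plus strand: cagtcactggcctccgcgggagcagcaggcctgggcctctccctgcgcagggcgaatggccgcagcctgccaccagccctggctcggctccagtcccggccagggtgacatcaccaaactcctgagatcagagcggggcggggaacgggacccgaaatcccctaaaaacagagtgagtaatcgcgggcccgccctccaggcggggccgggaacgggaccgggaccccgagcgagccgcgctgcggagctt
Tnfaip3 held 2 such runs, at -125 to -116 and at -12 to -3 from the start. Nfkbia held 1, at -29 to -20, and Nfkbie held 1, at -106 to -97. The Rela window held no match. Of the 7 members with an entry in the RefSeq table, 5 held a match in at least 1 of their windows (Nfkb2, Rel, Nfkbia, Nfkbie and Tnfaip3), and Rela and Nfkbib held none. Nfkb1, Relb and Nfkbiz have no entry. Among all 32851 windows of the same length, 3.90% held a match, and 5.44% of the 9837 tested genes with an entry did. A match of letters is a description of the sequence and not evidence of binding.

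The deposited values are whole numbers, called normalized counts here. That they are gene counts scaled by 1 factor per library and rounded was read from the values, and the depth estimates rest on it. Estimated depth was 19.7 to 40.2 M reads in p110g-/- TAM and 26.8 to 40.8 M in WT TAM, and 32.1 to 43.4 M in p110g-/- tumors and 40.3 to 44.6 M in WT tumors, so that 3 reads were worth at most 5.81 normalized counts. Every member was far above that floor in all 14 libraries. Pik3cg had 1210 to 2211 normalized counts in p110g-/- TAM and 2748 to 4477 in WT TAM, and 242 to 417 in p110g-/- tumors and 487 to 616 in WT tumors. Its log2 difference was -1.02 in TAM (limma adjusted p 0.299, and 0.00557 with the library number as a block) and -0.83 in whole tumor (adjusted p 0.0555). Pik3cg was lower in every p110g-/- library than in any WT library of its table, but not near 0, and the sources used here do not give which part of the gene is deleted. The summed macrophage markers (16 genes, none at 0 throughout) were 526994 to 685668 in p110g-/- TAM and 549611 to 682764 in WT TAM. They were 115326 to 167560 over all 6 whole tumors. Summed fibroblast and matrix markers (15 genes) were 256492 to 319558 in p110g-/- TAM and 181743 to 381303 in WT TAM. They were 327521 to 360434 in p110g-/- tumors and 351154 to 387074 in WT tumors. The tables of TAM and tumor may have been scaled separately, so levels across them are a description. The TAM libraries numbered 3 and 4 stood apart in both genotypes. Mitochondrial genes took 9.01% and 14.4% of the values in p110g-/- TAM 3 and 4 and 7.70% and 9.59% in WT TAM 3 and 4, but 2.73% and 3.21% in p110g-/- TAM 1 and 2 and 2.51% and 3.06% in WT TAM 1 and 2. The labels do not tie libraries to separate animals, so each p-value is set by the spread among these libraries, and that spread may be technical.

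To ask whether loss of PI3K gamma changed NF-kB gene expression in macrophages, the members were compared between p110g-/- and WT TAM. Tnfaip3, Nfkbia, Nfkbie and Nfkbiz had higher mean values in p110g-/- TAM, with ratios of mean normalized counts from 1.43 to 2.00, whereas Nfkb2, Rela, Relb and Nfkbib differed by under 0.05 on the log2 scale. None of the 10 passed limma's test at an adjusted p below 0.05 (Benjamini-Hochberg over 12475 genes), in which 0.112% of all genes passed. At an unadjusted p below 0.05 the members were Tnfaip3, Nfkbia and Nfkbie, 3 of 10, against 5.87% of all genes. The median log2 difference was 0.52 over the 5 inhibitors and -0.00 over the 5 subunits, against -0.01 over all genes tested. With the library number as a block, 0 members passed as well, while 2.50% of all genes did, and 4 members had an unadjusted p below 0.05, against 18.7% of all genes.

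**Figure D1:**
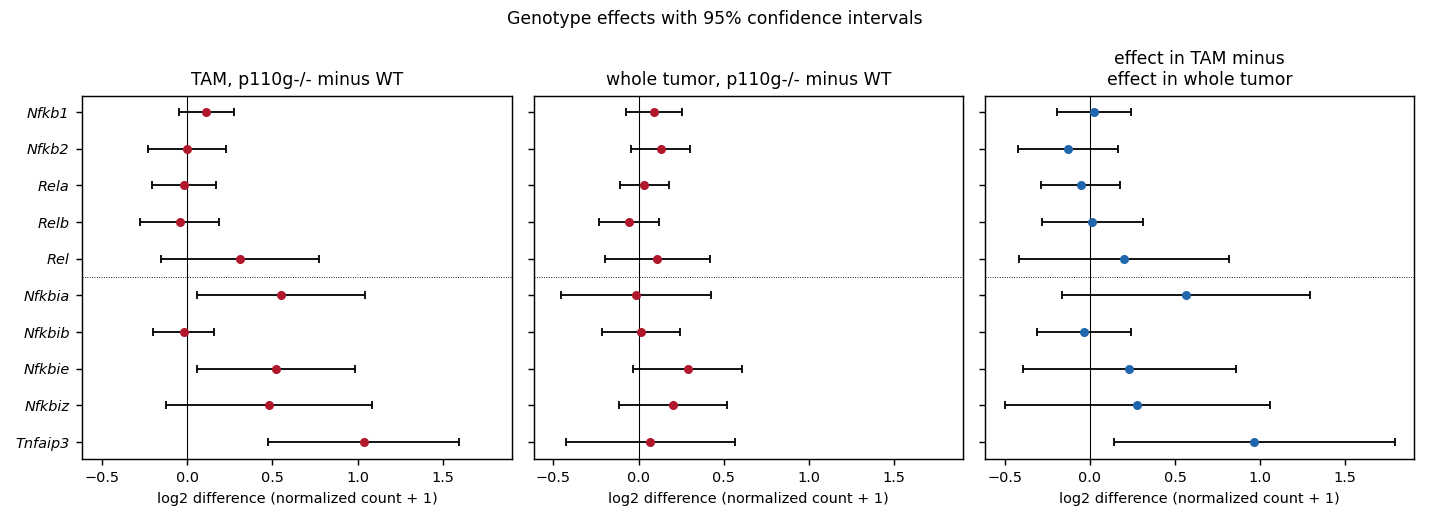
Log2 difference between p110g-/- and WT for each member (points) with its 95% confidence interval (bars), in TAM (4 libraries each), in whole tumor (3 each), and the TAM effect minus the whole tumor effect (14 libraries). In TAM the intervals of Tnfaip3, Nfkbia and Nfkbie lie above 0 before adjustment over all genes, and in whole tumor every interval spans 0.

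Among the inhibitors, Tnfaip3 encodes a ubiquitin-editing enzyme that dismantles signaling complexes upstream of IKK. It had 3396, 2281, 3001 and 3740 normalized counts in p110g-/- TAM, and 2228, 1678, 1181 and 1113 in WT TAM. The lowest p110g-/- library stood just above the highest WT library, so the genotypes did not overlap. The means were 3104.5 ± 627 in p110g-/- TAM and 1550.0 ± 517 in WT TAM (SD, n = 4 each). The log2 difference was 1.04 (SE 0.24, 95% interval 0.48 to 1.60), with an adjusted p of 0.302 in limma, so the member with the largest difference in TAM did not pass.

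Nfkbia encodes the classical IkB protein, which is degraded and resynthesized within each round of NF-kB activation. It had 12098, 8184, 10003 and 11064 normalized counts in p110g-/- TAM, and 10864, 6220, 5983 and 5895 in WT TAM. WT TAM 1 lay among the p110g-/- libraries, and the other WT libraries lay below all of them. The log2 difference was 0.55 (SE 0.22, 95% interval 0.06 to 1.04), and limma gave an adjusted p of 0.735.

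Nfkbie encodes a further IkB protein. It had 3831, 3365, 5675 and 6528 normalized counts in p110g-/- TAM, and 3320, 3060, 3335 and 3324 in WT TAM. In normalized counts the genotypes did not overlap. Yet p110g-/- TAM 1 and 2 sat close to the WT values and p110g-/- TAM 3 and 4 well above them. The log2 difference was 0.52 (SE 0.20, 95% interval 0.06 to 0.98), and limma gave an adjusted p of 0.731. Thus 2 of 10 members, Tnfaip3 and Nfkbie, had higher normalized counts in every p110g-/- TAM library than in any WT TAM library. The same held for 2.37% of all genes. Scaled to each library's own total instead (CPM), Nfkbie overlapped, with 98.5 in p110g-/- TAM 2 and 100.3 in WT TAM 3. Tnfaip3 stayed apart by CPM, with 66.8 in p110g-/- TAM 2 and 64.9 in WT TAM 1. The separation of Nfkbie therefore depended on the scaling.

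Nfkbiz encodes a nuclear IkB protein that can also act as a coactivator of secondary response genes. It had 8018, 2995, 4425 and 4594 normalized counts in p110g-/- TAM, and 3941, 3351, 3009 and 3231 in WT TAM. One p110g-/- library was far above all others and another was below every WT library. The log2 difference was 0.48 (SE 0.26), and limma gave an adjusted p of 0.999. It was 0.22 without p110g-/- TAM 1 and 0.70 without p110g-/- TAM 2. Nfkbib, which encodes another classical IkB protein, had 1405, 1466, 1387 and 1519 normalized counts in p110g-/- TAM and 1622, 1425, 1369 and 1457 in WT TAM. These values overlapped throughout, with a log2 difference of -0.02 and a 95% interval of -0.20 to 0.16. Sirt2 lies over Nfkbib on the opposite strand, and the sources used here do not give the strand setting of the counting, so the Nfkbib values are uncertain.

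Of the subunits, Rel, the subunit best known from lymphoid and myeloid cells, had the largest difference in TAM. It had 2379, 1536, 1949 and 2321 normalized counts in p110g-/- TAM, and 2094, 1912, 1385 and 1262 in WT TAM. The genotypes overlapped, and the log2 difference was 0.31 with a 95% interval of -0.16 to 0.77, and 0.19 without WT TAM 4. Nfkb1 had 6454, 6417, 5904 and 5890 normalized counts in p110g-/- TAM, and 5973, 5896, 5585 and 5362 in WT TAM. Its ranges overlapped, yet each p110g-/- library exceeded the WT library of the same number by 0.08 to 0.14 on the log2 scale. By CPM this was reversed for number 4, with 154 in p110g-/- TAM 4 and 158 in WT TAM 4. The log2 difference of Nfkb1 was 0.11 (95% interval -0.05 to 0.27, limma adjusted p 0.999).

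The other 3 subunits were level between the genotypes. Rela, which encodes the main activating subunit of the classical pathway, had 3646, 3885, 3366 and 3385 normalized counts in p110g-/- TAM and 3678, 3956, 3324 and 3534 in WT TAM. Its log2 difference was -0.02 with a 95% interval of -0.21 to 0.17. Nfkb2 and Relb serve the alternative pathway, in which the Nfkb2 precursor is processed to pair with the Relb product. Nfkb2 ranged from 5425 to 6677 normalized counts in p110g-/- TAM and from 5138 to 6422 in WT TAM, with a log2 difference of -0.00 (95% interval -0.23 to 0.23). Relb ranged from 1348 to 1833 in p110g-/- TAM and from 1536 to 1711 in WT TAM, with a log2 difference of -0.04 (95% interval -0.28 to 0.19). Psd lies over Nfkb2 on the opposite strand, so the Nfkb2 values are uncertain in the same way as those of Nfkbib. A missed threshold does not show that the genotypes are alike, and the intervals give the sizes these libraries leave possible.

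Same-numbered TAM libraries of the 2 genotypes deviated from their group means together, so the genotypes were also compared number by number. In normalized counts, Tnfaip3, Nfkbia, Nfkbie and Nfkb1 were higher in p110g-/- TAM in 4 of 4 pairs, 4 of 10 members against 11.2% of all genes. By CPM, Nfkb1 was lower in p110g-/- TAM in pair 4, so its count of pairs depended on the scaling. For Tnfaip3 the log2 differences were 0.61, 0.44, 1.34 and 1.75 in pairs 1 to 4. Nfkbia had differences of 0.16, 0.40, 0.74 and 0.91, and Nfkbie of 0.21, 0.14, 0.77 and 0.97. The differences of all 3 were larger in pairs 3 and 4, the libraries with the higher mitochondrial share, than in pairs 1 and 2. Rel also had its larger differences there, with 0.18, -0.32, 0.49 and 0.88 in pairs 1 to 4, whereas Nfkbiz was furthest apart in pair 1, at 1.02.

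**Figure D2:**
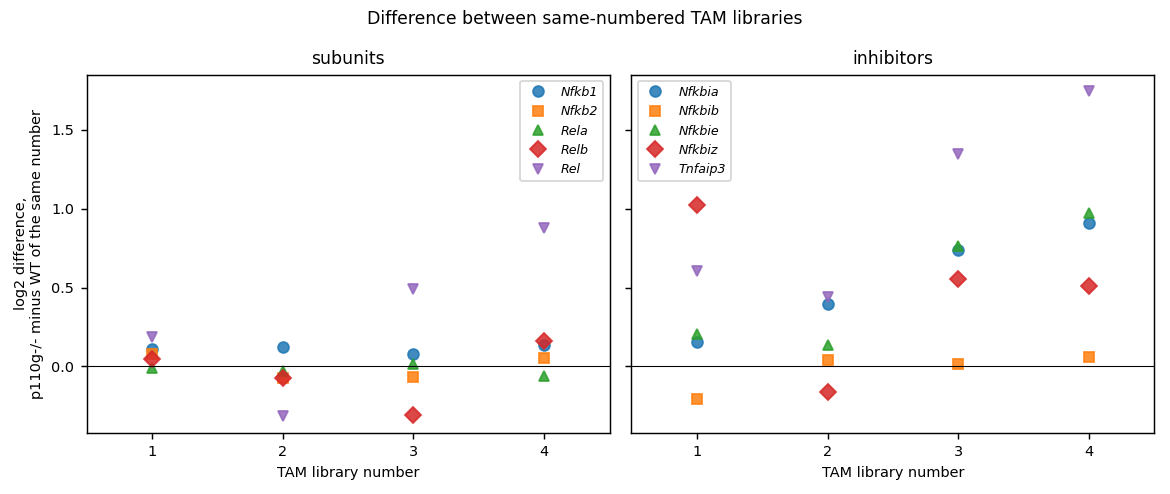
Log2 difference between the p110g-/- and the WT TAM library of the same number (x axis, numbers 1 to 4) for subunits (left) and inhibitors (right), 1 point per member and pair. Tnfaip3, Nfkbia and Nfkbie lie above 0 in 4 of 4 pairs, with Tnfaip3 at 1.34 and 1.75 in pairs 3 and 4 and at 0.61 and 0.44 in pairs 1 and 2.

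Without the libraries numbered 3 and 4 of both genotypes, the log2 difference was 0.53 for Tnfaip3, 0.28 for Nfkbia, 0.17 for Nfkbie and -0.07 for Rel, with limma adjusted p values of 1 at 2 libraries per genotype. With the mitochondrial share as a covariate it was 1.06 for Tnfaip3, 0.58 for Nfkbia and 0.46 for Nfkbie. The call itself depended on how libraries were weighted. With limma's sample quality weights, 5 members rose in p110g-/- TAM, while 8.01% of all genes passed in either direction. They were Tnfaip3 (1.46, adjusted p 0.00105), Nfkbia (0.79, adjusted p 0.00219), Nfkbie (0.78, adjusted p 0.00878), Rel (0.60, adjusted p 0.0190) and Nfkbiz (0.54, adjusted p 0.0285). Over the 19 alternatives run for TAM, the adjusted p of each of these 5 reached 1 at its highest. For libraries numbered 1 and 2 the weights ran from 0.168 (WT TAM 1) to 0.592 (WT TAM 2). For those numbered 3 and 4 they ran from 1.74 (p110g-/- TAM 3) to 6.49 (WT TAM 3). The weighted fit thus drew mostly on libraries 3 and 4, where most of these 5 genes were further apart. The estimation of the weights stopped before it converged. Weights estimated gene by gene, added after seeing the data, gave 5 members as well, against 7.55% of all genes. These weights were close to the first, from 0.167 for WT TAM 1 to 7.63 for WT TAM 3, so the 2 fits are not independent.

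Immediate-early genes, which respond within minutes to signals and also to tissue dissociation, were also higher in p110g-/- TAM, without passing. Of 28 listed immediate-early and dissociation stress genes, 25 were higher and 3 lower in p110g-/- TAM, 0 passed in limma, 10 had an unadjusted p below 0.05 and 6 rose with the library number as a block (Fos, Fosb, Egr1, Ier2, Dusp1 and Zfp36). Since the list was chosen with earlier results of these data known, these counts are a description. The 28 genes had a median log2 difference of 0.39, against -0.01 over all genes. Of all genes, 5.87% had an unadjusted p below 0.05 and 2.50% passed with the block. Their summed level was 247303 to 326718 normalized counts in p110g-/- TAM and 152040 to 236330 in WT TAM, without overlap, and no gene of the list was at 0 throughout. Neutrophil markers summed to 2525 to 4820 in p110g-/- TAM and 2098 to 5561 in WT TAM over 12 genes, with 7 of the 8 tested higher, 0 passing and 1 at an unadjusted p below 0.05. The sort took Gr1- cells, a gate meant to leave out neutrophils and Gr1+ monocytes. Monocyte markers summed to 22173 to 73591 in p110g-/- TAM and 31357 to 71183 in WT TAM over 6 genes. Of these, 2 were higher and 4 lower in p110g-/- TAM, with a median of -0.45. In limma 0 passed, 1 had an unadjusted p below 0.05, and Ly6c2 and Plac8 fell with the block. Fibroblast and matrix markers summed to 256492 to 319558 in p110g-/- TAM and 181743 to 381303 in WT TAM over 15 genes. Of these, 3 were higher and 12 lower in p110g-/- TAM, with a median of -0.84, 0 passed in limma or had an unadjusted p below 0.05, and Sparc fell with the block (adjusted p 0.0149). Of the 16 macrophage markers, 7 were higher and 9 lower, with a median of -0.05, 0 passed in limma, 1 had an unadjusted p below 0.05, and Fcgr1 fell with the block (-0.66, adjusted p 0.0103). The part of any of these in the member values was not tested.

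In whole tumor the same members were compared to see whether the tissue as a whole carried a difference. None of the 10 passed limma's test, against 4.35% of the 12717 genes tested, and 0 had an unadjusted p below 0.05, against 26.2% of all genes. None of the members was separated by genotype without overlap, against 31.0% of all genes. The median log2 difference was 0.08 over the members and 0.01 over all genes. The whole tumor calls moved with single libraries, from 553 genes in all to 29 without p110g-/- tumor 2 and 2000 without p110g-/- tumor 1. In bulk tissue, a change in the number of cells of a type and a change in RNA per cell cannot be told apart.

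With all 6 tumors in the fit, Nfkbie had the largest difference of the members in whole tumor. It had 1170, 1475 and 1417 normalized counts in p110g-/- tumors, and 903, 1154 and 1284 in WT tumors. The groups overlapped, with the lowest p110g-/- tumor inside the WT range. The log2 difference was 0.29 (SE 0.14, 95% interval -0.03 to 0.61), and limma gave an adjusted p of 0.228. Leaving out 1 tumor at a time, it lay between 0.15 without WT tumor 1 and 0.40 without WT tumor 3.

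Tnfaip3 and Nfkbia, the inhibitors with the largest differences in TAM, were spread widely within both genotypes in tissue. Tnfaip3 had 5187, 3579 and 4244 normalized counts in p110g-/- tumors, and 2882, 4804 and 4925 in WT tumors. Its log2 difference was 0.07 (SE 0.22, 95% interval -0.43 to 0.57), and it was -0.07 without p110g-/- tumor 1 and -0.18 without WT tumor 1. Nfkbia had 12172, 8007 and 9297 normalized counts in p110g-/- tumors, and 7499, 11007 and 11327 in WT tumors. In both genes p110g-/- tumor 1 was the highest of all 6 tumors and WT tumor 1 the lowest. The log2 difference of Nfkbia was -0.02 (SE 0.19, 95% interval -0.46 to 0.43).

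Nfkbiz had 6146, 4965 and 5204 normalized counts in p110g-/- tumors and 3832, 5566 and 4877 in WT tumors, a log2 difference of 0.20 with a 95% interval of -0.11 to 0.52. It was 0.06 without WT tumor 1 and 0.32 without WT tumor 2, and without p110g-/- tumor 2 or WT tumor 2 it was above that of Nfkbie. Nfkbib had 861, 667 and 752 in p110g-/- tumors and 707, 757 and 783 in WT tumors. Among the subunits, Nfkb2 had 4334, 4188 and 4105 normalized counts in p110g-/- tumors and 3451, 3916 and 4214 in WT tumors. Its log2 difference was 0.13 (95% interval -0.04 to 0.30), and 0.05 without WT tumor 1. Nfkb1, Rela, Relb and Rel differed by -0.06 to 0.11, and Rel by -0.03 without WT tumor 1 and 0.20 without p110g-/- tumor 1. Markers of other cell types differed in the same tumors. T cell markers summed to 1189 to 1647 normalized counts over 13 genes in p110g-/- tumors and 522 to 985 in WT tumors, and 6 of 13 rose. Cytotoxic and NK cell markers summed to 968 to 1654 over 11 genes in p110g-/- tumors and 370 to 816 in WT tumors. Of the 10 tested, 9 were higher, with a median log2 difference of 1.27, and Nkg7, Prf1 and Ifng rose. Endothelial markers summed to 3741 to 4233 over 11 genes in p110g-/- tumors and 2894 to 3742 in WT tumors, with 11 of 11 higher, a median of 0.57, 0 passing in limma and 8 at an unadjusted p below 0.05. Carcinoma epithelial markers summed to 9311 to 10659 over 5 genes in p110g-/- tumors and 13999 to 15097 in WT tumors, with a median of -0.54 over the 4 tested, and Krt8 and Krt18 fell. Of 15 fibroblast and matrix markers, 9 were higher and 6 lower, with a median of 0.05. Among them 4 had an unadjusted p below 0.05, and Col5a1 fell. None of the genes on these lists was at 0 throughout. Their part in the member values was not tested.

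Whether a member's genotype effect differed between TAM and whole tumor was tested directly by subtracting the whole tumor effect from the TAM effect. None of the 10 members passed in limma, against 0.145% of the 12396 genes tested. Tnfaip3 was the only member with an unadjusted p below 0.05 in that fit, 1 of 10 against 6.49% of all genes. Its difference of effects was 0.97 (SE 0.38, 95% interval 0.14 to 1.79, adjusted p 0.614). Nfkbia had a difference of effects of 0.57 (95% interval -0.16 to 1.29, adjusted p 0.930). The other 8 lay between -0.13 for Nfkb2 and 0.28 for Nfkbiz.

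Levels were set across TAM and whole tumor as counts per 1000000 (CPM) of each library's own total. No test was run, since the tables may have been scaled separately. The inhibitors split in opposite directions. In p110g-/- mice, mean Nfkbie was 137 ± 36.2 CPM in TAM and 51.1 ± 7.28 CPM in whole tumor (SD, n = 4 and 3). In WT mice it was 96.6 ± 3.67 CPM in TAM and 40.7 ± 6.87 CPM in whole tumor. Tnfaip3 had the opposite order, with 88.3 ± 15.6 CPM in TAM and 163 ± 26.3 CPM in whole tumor of p110g-/- mice, and with 45.9 ± 14.8 CPM in TAM and 153 ± 41.4 CPM in whole tumor of WT mice. Neither gene's TAM and tumor libraries overlapped in either genotype.

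Rel, like Nfkbie, had the higher level in the sorted cells. The ratio of its mean CPM in TAM to that in whole tumor was 2.54 in p110g-/- mice and 2.38 in WT mice. Nfkbib had ratios of 1.44 in p110g-/- mice and 1.59 in WT mice, and Relb had ratios of 1.24 in p110g-/- mice and 1.31 in WT mice. All TAM libraries exceeded all tumor libraries of their genotype for these 4 genes (Rel, Nfkbie, Nfkbib and Relb), as they did for 22.1% of all genes in p110g-/- mice and 27.0% in WT mice. Tnfaip3 was below, as were 50.0% of all genes in p110g-/- mice and 47.4% in WT mice. Nfkb1 and Rela had ratios between 0.911 and 1.01, with overlapping libraries. Nfkbia had ratios of 0.800 in p110g-/- mice and 0.589 in WT mice, also with overlap. The ratio of Nfkb2 was 1.07 in p110g-/- mice, without overlap, and 1.25 in WT mice, with overlap. That of Nfkbiz was 0.704 in p110g-/- mice, with overlap, and 0.576 in WT mice, without.

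**Figure D3:**
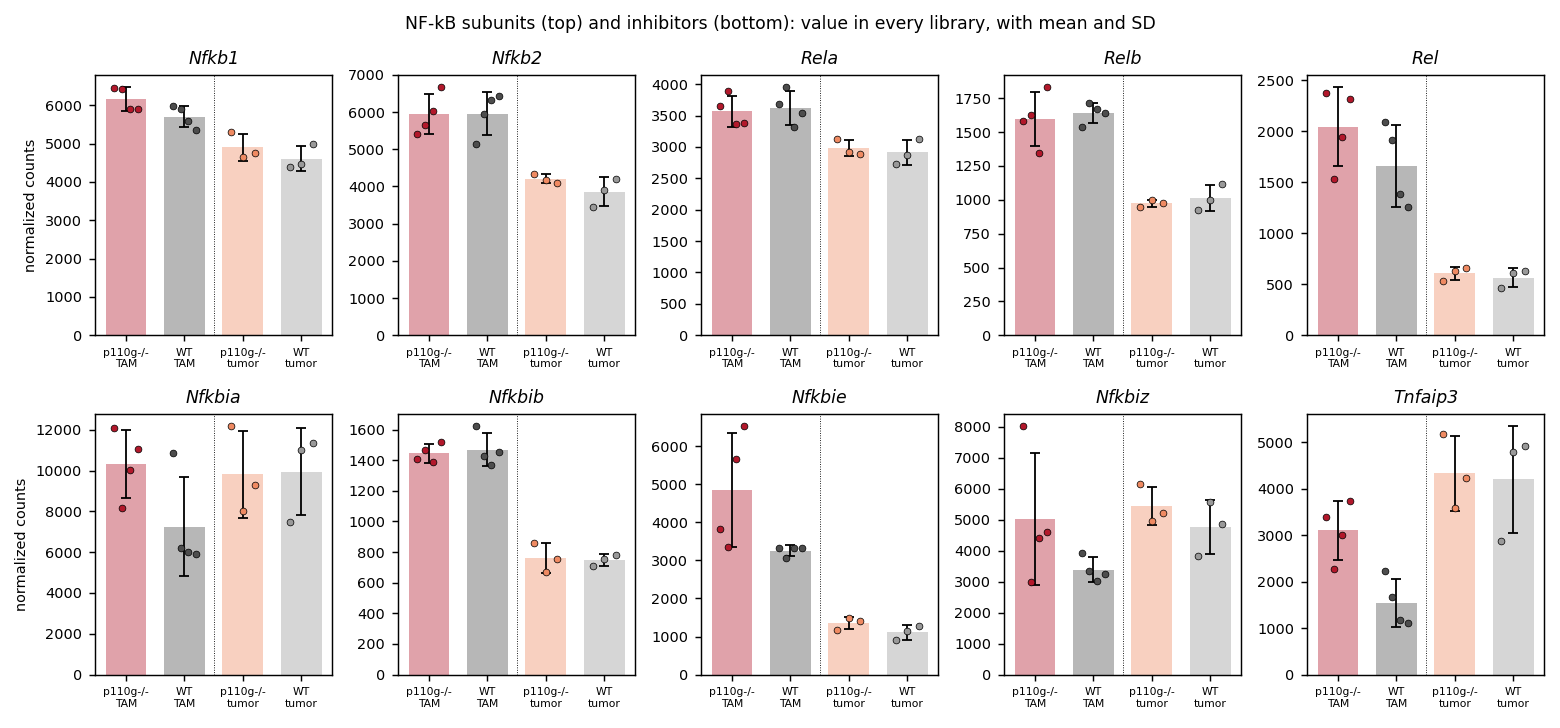
Normalized counts of each member in every library (points), with the mean (bar) and SD (whisker), for p110g-/- TAM, WT TAM, p110g-/- tumor and WT tumor from left to right (subunits above, inhibitors below). The tables of TAM and tumor may have been scaled separately, so heights are compared within a table. Tnfaip3 is the member whose p110g-/- TAM mean, 3104.5, stands furthest above its WT TAM mean, 1550.0, as a ratio.

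Divided by transcript length (CPM per kb of the longest protein-coding transcript in GENCODE, which need not be the annotation counted), Nfkbia was the most abundant member in all 4 groups. It reached 187 ± 31.7 CPM per kb in p110g-/- TAM, 136 ± 43.3 in WT TAM, 234 ± 44.8 in p110g-/- tumors and 230 ± 48.4 in WT tumors. Rel was the least abundant in all 4 groups, at 7.82 ± 1.45 CPM per kb in p110g-/- TAM, 6.60 ± 1.55 in WT TAM, 3.07 ± 0.384 in p110g-/- tumors and 2.77 ± 0.433 in WT tumors. Between these, the order differed by sample type. In p110g-/- TAM, Nfkbie stood second at 56.3 ± 14.8 CPM per kb, ahead of Nfkb2 at 44.1 ± 1.73, Nfkb1 at 42.9 ± 4.23, Rela at 37.7 ± 4.15 and Nfkbiz at 35.0 ± 16.0, and the libraries of neighbours in this order overlapped. In WT TAM, Nfkb2, Nfkb1, Nfkbie and Rela lay together between 39.5 and 46.0 CPM per kb, above Nfkbiz at 24.3 ± 2.55. Relb, Nfkbib and Tnfaip3 formed the lower tier in p110g-/- TAM, between 20.0 and 20.6, whereas in WT TAM Tnfaip3 stood at 10.4 ± 3.35 beside Relb at 22.0 ± 1.30 and Nfkbib at 21.1 ± 1.26. In whole tumor Nfkbiz took second place, at 49.7 ± 4.48 CPM per kb in p110g-/- mice and 42.2 ± 7.77 in WT mice, close to Nfkb1, Rela, Nfkb2 and Tnfaip3, which lay between 36.9 and 44.8 in p110g-/- mice and between 34.7 and 40.9 in WT mice. Nfkbie, Relb and Nfkbib lay between 13.9 and 21.0 in p110g-/- tumors and between 13.3 and 16.8 in WT tumors.

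A ratio of 2 members within a library is free of the library's scaling, and only its change between libraries is read. The ratio of Tnfaip3 to Rela was 0.931, 0.587, 0.892 and 1.10 in p110g-/- TAM, and 0.606, 0.424, 0.355 and 0.315 in WT TAM. The ranges overlapped, since p110g-/- TAM 2 lay just under WT TAM 1. The ratio of Nfkbia to Rela averaged 2.92 ± 0.561 in p110g-/- TAM and 2.00 ± 0.644 in WT TAM (SD, n = 4 each). Nfkbie to Rela averaged 1.38 ± 0.506 in p110g-/- TAM and 0.905 ± 0.0970 in WT TAM. Relb to Rela averaged 0.449 ± 0.0634 in p110g-/- TAM and 0.454 ± 0.0375 in WT TAM. For each of the 9 ratios the genotypes overlapped in TAM and in whole tumor. In whole tumor, Tnfaip3 to Rela averaged 1.45 ± 0.219 in p110g-/- mice and 1.43 ± 0.332 in WT mice.

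**Figure D4:**
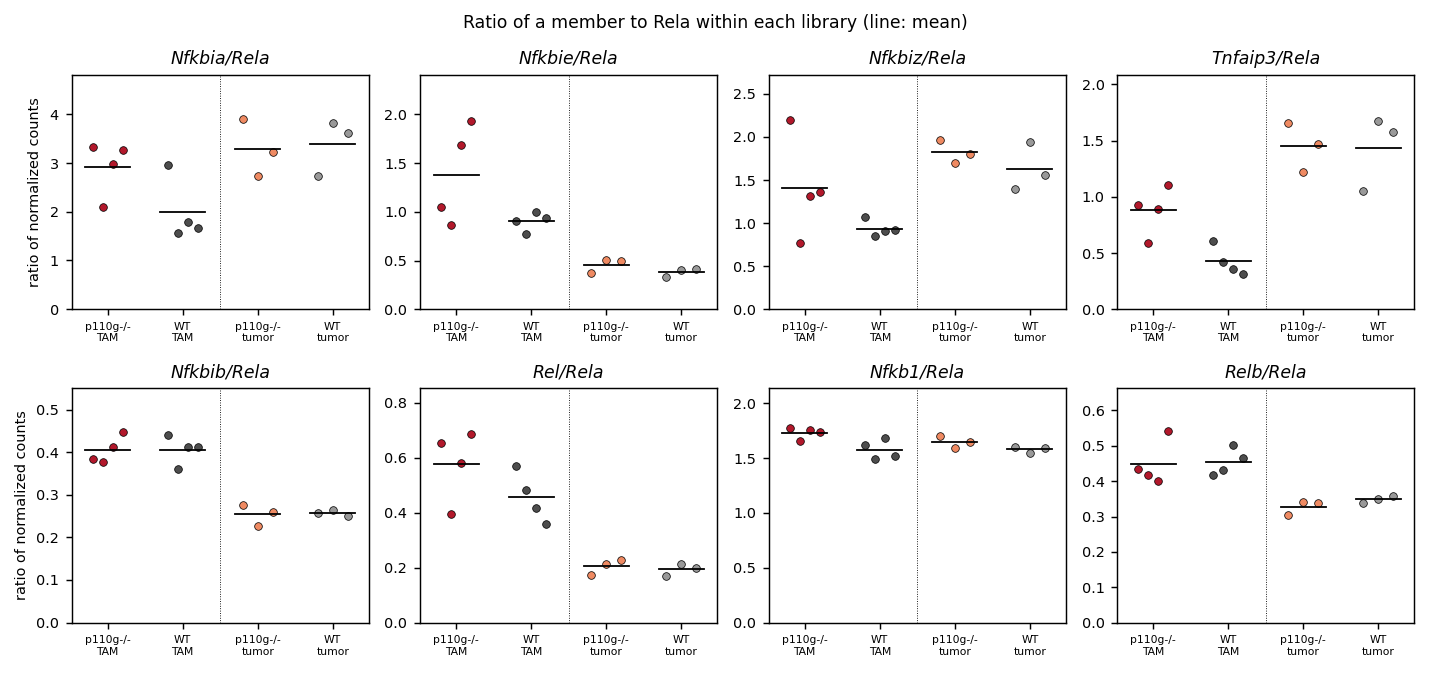
Ratio of the normalized counts of a member to those of Rela in each library (points) with the group mean (line), for p110g-/- TAM, WT TAM, p110g-/- tumor and WT tumor from left to right; linear axes start at 0. Tnfaip3 to Rela averages 0.879 in p110g-/- TAM and 0.425 in WT TAM, with ranges that overlap, while Nfkbib to Rela is 0.406 in both.

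The members varied together to different degrees over the 14 libraries, after each gene's log2 values were centred within its table. These correlations are descriptions, since the libraries share genotype, number and scaling. Nfkbia and Tnfaip3 were the closest pair, with a Pearson r of 0.92 over 14 libraries, 0.92 within the 8 TAM libraries and 0.97 within the 6 tumors. Rel and Tnfaip3 followed at 0.81, and Nfkbia and Nfkbiz at 0.77. Rela and Tnfaip3 stood at 0.14, with -0.04 within TAM and 0.81 within whole tumor. Rela and Nfkbie stood at -0.33, with -0.61 within TAM and 0.44 within whole tumor. Nfkb1 and Nfkb2, the precursor genes, correlated at -0.64 within TAM and 0.80 within whole tumor.

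Across all 10188 genes compared, the genes most like each member were found by the same measure. For Tnfaip3 they were Ccrl2 (r 0.96), Rab11fip1 (0.95) and Sik1 (0.94). For Nfkbia they were Cxcl2, Plk2 and Klf6, each at 0.94, where Cxcl2 encodes a neutrophil chemokine. Those of Nfkbie were Zfp189 (0.92), Marveld1 (0.89) and Nr4a2 (0.89), the last also on the immediate-early list. Nfkbiz was most like Zfp868 (0.91), Flt3 (0.89) and Tspan13 (0.88), and Nfkbib most like Slc3a2 (0.88), Sesn2 (0.84) and LOC100862446 (0.84). Among the subunits, Rel was most like A630033H20Rik (0.96), Nuak2 (0.92) and Ticam2 (0.92), and Nfkb1 most like C3, Hsdl1 and Ywhag, each at 0.88. Rela was most like Cactin, Fam35a and Ap2a2, each at 0.87. Nfkb2 was most like Peo1 (0.85), Tubb3 (0.85) and Lbhd1 (0.83), and Relb, the least matched member, was most like A830010M20Rik (0.79), Napepld (0.73) and Fbxw4 (0.72). Within TAM alone, r for these matches ran from 0.73 (Nfkbib with Sesn2) to 0.98 (Rel with A630033H20Rik). Within whole tumor alone it ran from 0.52 (Relb with Napepld) to 0.998 (Tnfaip3 with Rab11fip1). There it was 0.57 both for Nfkbiz with Zfp868 and for Nfkbie with Nr4a2.

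The rest of the pathway was read from 4 lists. In TAM, 0 of 10 IKK complex and NIK genes and 0 of 22 receptor-proximal adaptors passed in limma. The count was also 0 of 18 other IkB proteins and brakes and 0 of 31 NF-kB target genes, against 0.112% of all genes. In the order of these 4 lists, 0, 0, 2 and 5 genes had an unadjusted p below 0.05, against 5.87% of all genes. Their median log2 differences were -0.05, 0.00, 0.04 and 0.15 in the same order of lists. With the library number as a block, 3 of 31 target genes rose in p110g-/- TAM, while 2.50% of all genes passed in either direction. Cxcl2 had 24433, 10302, 15143 and 15625 normalized counts in p110g-/- TAM, and 12963, 3105, 2472 and 3023 in WT TAM (log2 difference 1.91, higher in 4 of 4 pairs, limma adjusted p 0.417 without the block and 0.0172 with it). Cxcl1, which encodes a related chemokine, had a log2 difference of 1.55 (adjusted p 0.595 without the block and 0.0470 with it). Ptgs2, which encodes the inducible prostaglandin synthase, had one of 0.80 (adjusted p 0.946 without the block and 0.0132 with it). Both were higher in 4 of 4 pairs, as were 11.2% of all genes. The 3 target genes are named because they passed with the block, which uses the same pairs, so their pair counts add no support.

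In whole tumor, other genes of these lists passed. Of the 31 target genes, 3 rose and 2 fell in p110g-/- tumors. Irf1, an interferon-responsive transcription factor, had 3100, 3441 and 3237 normalized counts in p110g-/- tumors and 1701, 1921 and 2173 in WT tumors, without overlap (log2 difference 0.76, limma adjusted p 0.0094). Nos2, the inducible nitric oxide synthase, rose by 1.35 (adjusted p 0.0186), and Vcam1, an adhesion molecule, by 0.32 (adjusted p 0.0455). Il1a, a cytokine, had a log2 difference of -1.70 (adjusted p 0.0282), and Plaur, the urokinase receptor, of -0.51 (adjusted p 0.0462). Birc3, a ubiquitin ligase of TNF receptor complexes, rose by 0.44 (adjusted p 0.0379) as 1 of 22 adaptors. Tab1, an activator of the kinase upstream of IKK, had a log2 difference of -0.32 (adjusted p 0.0396) as 1 of 10 IKK complex and NIK genes. For each of these 7 genes, the 3 p110g-/- tumors lay on 1 side of all 3 WT tumors, as for 31.0% of all genes. The 7 are named because they passed in these same tumors, so this separation adds no support. Of the 31 targets, 15 were higher, with a median of -0.00 and 10 at an unadjusted p below 0.05. Of the 22 adaptors, 19 were higher, with a median of 0.15 and 10 at an unadjusted p below 0.05. Of the 10 IKK complex and NIK genes, 7 were higher, with a median of 0.09 and 6 at an unadjusted p below 0.05. Of the 18 other IkB proteins and brakes, 12 were higher, with a median of 0.07, 0 passing in limma and 3 at an unadjusted p below 0.05. Over all genes the median was 0.01, 4.35% passed in limma and 26.2% had an unadjusted p below 0.05. The part of the T cell, cytotoxic, endothelial and epithelial markers in these values was not tested.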

How the data were processed

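RNA was measured in 14 libraries (4 p110g-/- and 4 WT TAM, 3 p110g-/- and 3 WT whole tumor). Bowtie2, DESeq and build mm9 are named, without role, per the submitters' processing notes; the sources used here do not give the counter, annotation, strand setting, scaling formula or tool versions. The authors deposited a score per gene and library, whole numbers called normalized counts here; that they are counts scaled by 1 factor per library and rounded was read from the values, whose regular gaps also gave the depth estimates. Depth limits cover counting error only. A column headed pp in both deposited tables has no stated meaning and was left out. In all, 21 symbols turned into dates were restored from their identifiers.

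Log2(normalized count + 1) was tested with limma 3.58.1 (R 4.3.3), with a prior on the spread that follows the mean, two-sided, and Benjamini-Hochberg adjustment over all genes with at least 10 normalized counts in 4 TAM or 3 whole tumor libraries; a gene rose or fell where its adjusted p was below 0.05. The scale understates changes of low genes. A count model was not used, since the values are not raw counts. Genotypes were compared within each table, and the difference of effects over all 14 libraries. CPM used each library's column total. The code was tested on simulated data.

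Same-numbered TAM libraries deviated together (correlations 0.847, 0.472, 0.808 and 0.702 over 12475 genes), so the number was used as a block beside a TAM result where it changed a call or a count; the labels do not say what a number marks, and p110g-/- TAM 4 was as close to WT TAM 3 (0.704).

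The members and gene lists were chosen with earlier results of these data known. Genes named are the members, listed pathway genes that passed in a genotype comparison or with the block, the 3 most correlated genes per member (mean of at least 100 normalized counts in each table), Pik3cg, and the marker genes named beside their lists, which were picked after their values were seen. The weights for TAM stopped before convergence. Alternatives were another pseudocount (5), no filter, median-of-ratios and quantile scaling, the block, sample quality weights, a fit of all 14 libraries, the mitochondrial share as a covariate and leaving out libraries.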

Additional observations from a re-analysis of the deposited data

Results flagged for a closer look

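In 20 groups of 4 libraries (10 members in each genotype of TAM), the library furthest from the rest was compared with the group's range, a check that chance alone trips in about 1 of 20 groups. It picked out 2. Nfkbia in WT TAM 1 had 10864 normalized counts, far above the other WT TAM libraries at 5895 to 6220. Without that library the log2 difference of Nfkbia in TAM was 0.76, against 0.55 with it, and limma's adjusted p was 0.0878; over the 19 alternatives it ran from 0.00219 to 1. Nfkbie in WT TAM 2 had 3060 normalized counts, the lowest of its group, while the other 3 lay within 3320 to 3335, so this gap is small beside the level itself.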

How the results depend on the processing

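All values here are p110g-/- minus WT. With 4 TAM and 3 whole tumor libraries per genotype, the count of genes passing moved with the processing, and the causes were not tested. In TAM 14 genes passed, against 6 with quantile scaling, 312 with the replicate block, 999 with sample quality weights and 942 with weights estimated gene by gene (5 members each), 88 with all 14 libraries in 1 fit, 57 with the mitochondrial covariate, 0 without libraries 3 and 4 of both genotypes (208 at an unadjusted p below 0.05), 133 without libraries 1, and 3 (without WT TAM 2) to 40 (without WT TAM 1) with each library left out. The gene-by-gene weights and the sets of libraries left out were chosen after seeing the data. In whole tumor 553 passed, against 2308 with weights, 15 with all 14 libraries and 29 to 2000 with each library left out. For the difference 18 passed, against 327 with the replicate block and 0 to 101 with each library left out. Under the alternatives run, members passed only with the weights in TAM. Tumor numbers did not pair the libraries (correlations 0.0947, 0.0763 and 0.178), and with the block 759 genes and 0 members passed there, with Ikbke, N4bp1, Icam1, Bcl2a1d and Pik3cg (adjusted p 0.0456) passing only then.

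Some member values changed sign. In TAM these were Nfkb2 (0.000536 with median-of-ratios, 0.00356 without libraries 3 and 4), Rela (0.00743 with weights, 0.0134 gene by gene), Nfkbib (0.0660 with weights, 0.0617 gene by gene, 0.0399 without libraries 1) and Rel (-0.0659 without libraries 3 and 4). In whole tumor they were Nfkbia (0.0354, quantile), Nfkbib (-0.0170, quantile; -0.0623, weights) and Tnfaip3 (-0.139, weights), and for the difference Nfkb1 (-0.0172) and Nfkbib (0.00728), both with quantile scaling. With each library left out, TAM values ran from -0.0705 to 0.0421 for Nfkb2, -0.0621 to 0.0226 for Rela, -0.114 to 0.0339 for Relb and -0.0545 to 0.0270 for Nfkbib. Whole tumor values ran from -0.00962 to 0.0870 for Rela, -0.121 to 0.0136 for Relb, -0.0299 to 0.199 for Rel, -0.206 to 0.122 for Nfkbia, -0.0794 to 0.105 for Nfkbib and -0.182 to 0.204 for Tnfaip3. Differences ran from -0.0343 to 0.0810 for Nfkb1, -0.0585 to 0.0914 for Relb and -0.126 to 0.0575 for Nfkbib.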
